A study of Mus musculus with 24 samples.

Results

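The sine oculis-related homeobox and Eya families and a small set of fiber-type transcription factors were followed in optogenetic muscle sheets that were left unstimulated or pulsed with light. The genes were chosen by name, with no threshold on a measured value but with earlier results of these data known. They were the homeobox genes Six2, Six4 and Six5, the coactivator genes Eya1, Eya3 and Eya4, and Vgll2, Sox6 and Prox1, which makes 9 of the 56941 genes in the deposited tables. Of these, 7 passed the filter on low counts and were tested among 13318 genes, and Six2 and Sox6 were not.

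The cells were C2C12 mouse myoblasts, an established skeletal muscle line, and all of them carried the ChR2::tdTomato genotype, a blue-light-gated cation channel tagged with a red fluorescent protein. They were differentiated into aligned sheets on grooved fibrin gels in medium with horse serum and IGF-1, and the control sheets received no light stimulation. The stimulated sheets were pulsed for 30 min a day at 1 Hz, 4 Hz or 10 Hz, and each of the 4 conditions comprised 6 tissues. All tissues came from 1 cell line with no nerve or blood supply, and the study notes spontaneous twitching in every condition, control included, so that control means unstimulated only.

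Sine oculis-related homeobox proteins such as Six4 bind DNA and, together with Eya proteins, which lack a DNA-binding domain of their own and supply the activating partner, switch on myogenic genes in the embryo and fast-fiber genes in the adult. Vgll2 is a cofactor of the Tead factors, Sox6 silences slow-fiber genes in fast fibers, and Prox1 is a homeobox factor linked to the slow-fiber program and to NFAT signaling. The question put to the data was how the RNA of each of these regulators stood after repeated contraction at each frequency.

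The RNA of Six4 and Prox1 moved most, in opposite directions. Six4 fell and Prox1 rose at 1 Hz, Eya1 and Eya4 rose with Prox1, and at 10 Hz none of the 7 tested genes was called against control. The stretches upstream of the Six4 and Prox1 starts are printed for this reason, read 5′ to 3′ on the gene's strand from the GRCm39 genome. Capitals mark GGAAAA, the core of NFAT sites, or its reverse complement TTTTCC.
Six4: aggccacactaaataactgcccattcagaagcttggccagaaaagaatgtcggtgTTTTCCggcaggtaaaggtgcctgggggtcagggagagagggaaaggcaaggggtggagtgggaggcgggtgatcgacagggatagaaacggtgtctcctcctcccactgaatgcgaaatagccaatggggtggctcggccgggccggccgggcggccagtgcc
Prox1: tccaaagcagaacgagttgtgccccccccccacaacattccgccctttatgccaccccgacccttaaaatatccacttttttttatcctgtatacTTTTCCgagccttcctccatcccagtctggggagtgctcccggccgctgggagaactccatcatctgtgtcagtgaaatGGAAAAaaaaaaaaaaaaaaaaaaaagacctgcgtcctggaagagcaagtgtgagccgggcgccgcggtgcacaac
The Six4 stretch is chr12:73160231-73160449 on the minus strand, 219 bases that end where the first exon of another Six4 transcript begins. The Prox1 stretch is chr1:189903209-189903458 on the minus strand, the 250 bases before the start of the canonical transcript, inside the limits of the gene because another Prox1 transcript starts farther upstream. Six4 held the core 195 bases upstream of its canonical start, and Prox1 held it 155 and 76 bases upstream, the second copy running into a stretch of A. Both strands of the 250 bases before the canonical start were searched, the Six4 bases not printed here included, and Eya1, Six2 and Sox6 were not searched. The core was present before Six4, Six5 and Prox1 and was not found before Eya3, Eya4 and Vgll2, against 21.9% of the windows of 21757 protein-coding genes. The letters TCAGGTT (the MEF3 site bound by sine oculis-related homeobox proteins, 3.53% of windows), CATTCCT (the M-CAT element bound by Tead proteins, 4.44%) and TGACGTCA (the CRE, 1.7%) were in none of these 6 windows. An E-box, CANNTG, lay before Eya3 and Prox1 (64.8% of windows) and an AP-1 site, TGANTCA, before Six5 (6.18%). These matches describe letters and not occupancy.

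Library totals ran from 4.09 to 15.2 M counts (M, mega). By condition they were 4.19 to 7.65 M in control, 4.09 to 15.2 M at 1 Hz, 7.55 to 11.5 M at 4 Hz and 5.41 to 12.1 M at 10 Hz. The summed level of 9 skeletal muscle markers was 5440 to 11700 TPM (transcript abundance per length, scaled to the same total in each library), against 20.8 to 57.4 TPM for 8 fibroblast, endothelial and macrophage markers. Of these 8, Cdh5, Ptprc, Adgre1 and Lum averaged under 0.1 TPM, Pecam1 and Csf1r reached condition means of 0.295 and 0.608 TPM, Pdgfra lay between 3.89 and 7.60 TPM, and Dcn, which fibroblasts express strongly, lay between 18.8 and 32.5 TPM. The muscle markers moved with the conditions, from 5660 to 7260 TPM in control, 8050 to 11100 TPM at 1 Hz, 7710 to 11700 TPM at 4 Hz and 5440 to 8350 TPM at 10 Hz. RNA without a poly(A) tail also moved with them. The share of 15 such small RNAs was 96.6 to 168 CPM (counts scaled to library size) in control, 14.1 to 69.4 at 1 Hz, 17.1 to 49.9 at 4 Hz and 37.0 to 270 at 10 Hz. The labels state that some low-input samples were ribodepleted instead of poly(A)-selected and do not name them, so this share and the condition cannot be fully told apart. With the share as a covariate 1 gene of 13318 was called at 1 Hz against control, where 4720 were called without it. Such bulk values also cannot separate fewer cells of a kind from less RNA per cell.

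**Figure D1:**
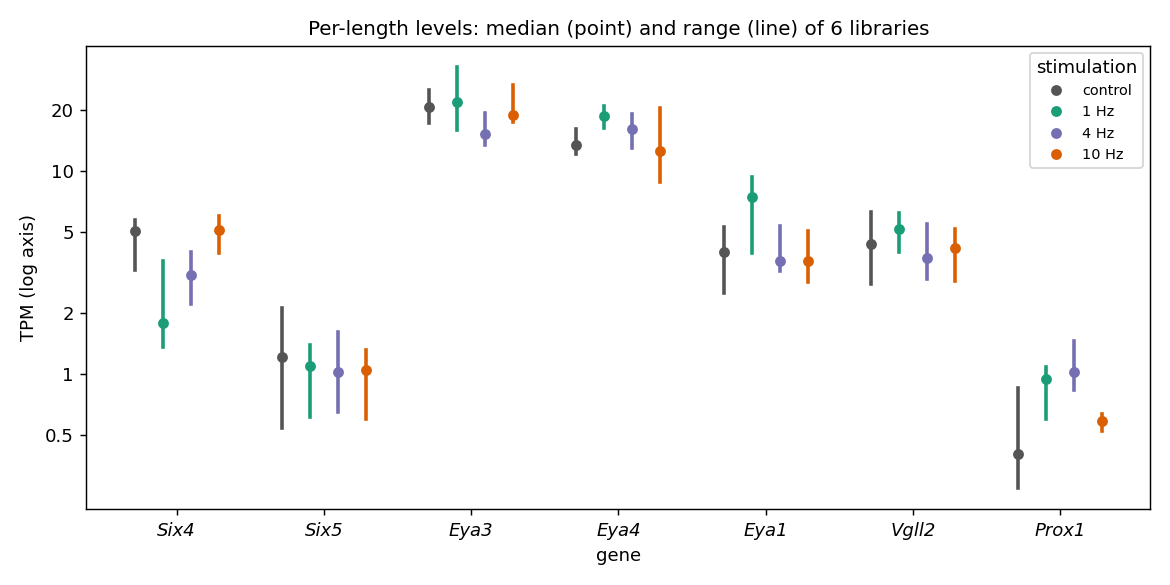
Level per length of 7 members in TPM on a log axis, with the median (point) and the range (line) of 6 libraries in each of the 4 conditions. Eya3 and Eya4 lay above the other members, Prox1 lay lowest in control, and Six2 and Sox6 are not drawn because most of their libraries were at 0.

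In unstimulated sheets the members differed widely in level. Eya3 stood highest at 20.6 TPM ± 2.81 (SD, n = 6) and Eya4 followed at 13.9 TPM ± 1.77, and their ranges did not overlap. Six4 (4.84 TPM ± 0.901), Vgll2 (4.3 TPM ± 1.28) and Eya1 (3.88 TPM ± 1.00) followed with overlapping ranges. Six5 stood at 1.22 TPM ± 0.589, and its range overlapped that of Prox1 at 0.488 TPM ± 0.223. Six2 and Sox6 came last at 0.0383 and 0.0279 TPM.

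A gene was called changed where the p-value of edgeR's quasi-likelihood test, adjusted over all 13318 tested genes by the Benjamini-Hochberg method, was below 0.05. Levels per library are given in CPM scaled by the trimmed mean of M-values (TMM), and fold changes are log2 values from the fit with their SE. At 1 Hz against control 4 of the 7 tested members were called, where 35.4% of all tested genes were. Of these 3 were higher and 1 was lower, against 18.1% and 17.3% of all genes. At 4 Hz 2 members were called, both higher, against a background of 39.4% called and 19.2% higher. At 10 Hz no member was called, where 4.89% of all genes were, and none had an unadjusted p under 0.05 or was called by DESeq2. Between frequencies, 2 members differed for 4 Hz against 1 Hz (background 12.3%), 3 for 10 Hz against 1 Hz (36.3%) and 2 for 10 Hz against 4 Hz (22.8%). In a test of any difference among the 4 conditions, Six4, Prox1, Eya1 and Eya4 were called and Six5, Eya3 and Vgll2 were not (background 52.3%). With so large a part of all genes called, the number of members called says little about them as a set. The comparisons with control share the same 6 control libraries.

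**Figure D2:**
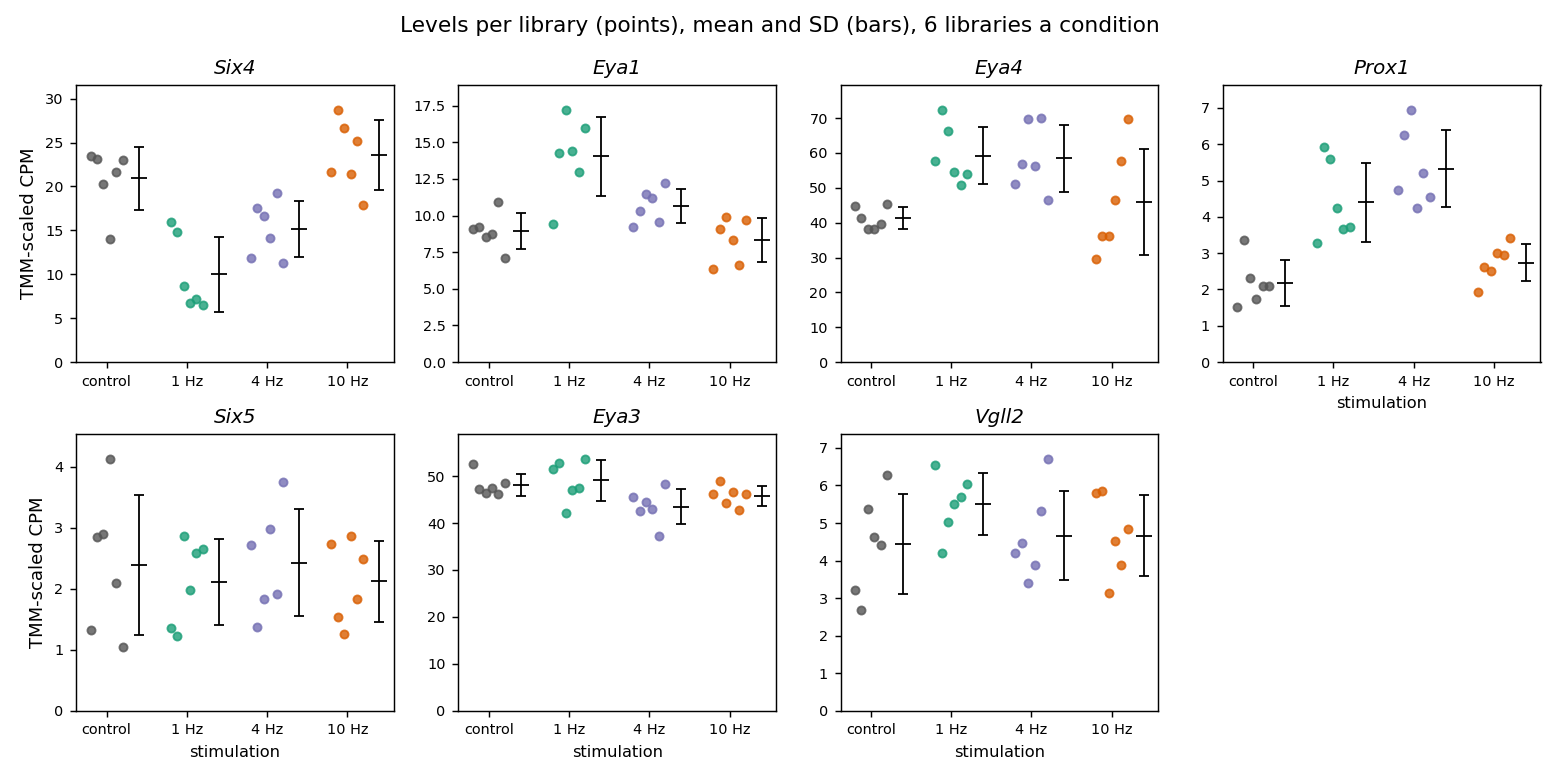
TMM-scaled CPM of the 7 tested members in each library (points), with mean and SD (bars), for control, 1 Hz, 4 Hz and 10 Hz with 6 libraries each. Six4 is lowest at 1 Hz, Eya1 highest at 1 Hz, Eya4 and Prox1 highest at 1 and 4 Hz, and Six5, Eya3 and Vgll2 overlap among conditions.

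Six4, a homeobox factor (12:73146383-73160230, minus strand, 3 exons), was the member that fell. Its level in control ran from 14.0 to 23.5 CPM with a median of 22.3, and at 1 Hz from 6.48 to 16.0 CPM with a median of 7.92. At 4 Hz it ran from 11.3 to 19.3 CPM (median 15.4), and at 10 Hz from 17.9 to 28.7 CPM (median 23.5). The 4 Hz median thus sat between those of 1 Hz and control, and every 10 Hz library was above every 1 Hz library, as held in either direction for 13.2% of all tested genes. Against control, Six4 fell by 1.12 on the log2 scale at 1 Hz (SE 0.20, 95% confidence interval -1.53 to -0.71, adjusted p = 0.000167), a level 0.46 times that of control. The difference at 4 Hz was -0.46 (SE 0.19, adjusted p = 0.054), short of the threshold. It passed with DESeq2 (adjusted p = 0.0437), with total count scaling (-0.56, adjusted p = 0.0232), with limma on log2(TPM + 1) (-0.52, adjusted p = 0.0199), in a fit of only the 12 libraries compared (adjusted p = 0.0238) and without control replicate 4, 1 Hz replicate 1, 2 or 6, or 4 Hz replicate 2 or 5 (adjusted p 0.0221 to 0.0488). With the small RNA share as a covariate it turned direction, to 0.18 (adjusted p = 0.78). At 10 Hz the difference from control was 0.18 (interval -0.21 to 0.56, adjusted p = 0.638). Between frequencies, Six4 was higher at 10 Hz than at 1 Hz by 1.30 (SE 0.20, adjusted p = 2.22e-05), higher at 10 Hz than at 4 Hz by 0.64 (adjusted p = 0.0142) and higher at 4 Hz than at 1 Hz by 0.65 (adjusted p = 0.0326).

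Six4 split within the 1 Hz condition. Replicates 1 and 2 held 16.0 and 14.8 CPM, and the other 4 replicates held 6.48 to 8.65 CPM. Replicates 1 and 2 also had the highest small RNA share of that condition, 69.4 and 35.0 CPM against 14.1 to 19.7 CPM in the rest. Their library totals were the lowest of it, 5.14 and 4.09 M counts against 7.34 to 15.2 M in the rest. The part of that share or of depth in the Six4 level was not tested within the condition. Only the other 4 libraries at 1 Hz lay below the whole control range. At 4 Hz, replicate 5 had the lowest small RNA share of its condition (17.1 CPM) and the highest Six4 level of it (19.3 CPM). In the fit with that covariate the 1 Hz difference from control was -0.50 (adjusted p = 0.53), the 10 Hz against 1 Hz difference was 0.76 (adjusted p = 0.0834) and the 10 Hz against 4 Hz difference was 0.08 (adjusted p = 0.98), while the 4 Hz against 1 Hz difference was 0.67 and was called (adjusted p = 0.0114). The 4 Hz against 1 Hz call for Six4 was lost without any one of 1 Hz replicates 3 to 6 or 4 Hz replicates 2 to 5 (adjusted p between 0.0543 and 0.0902), and on the log2(TPM + 1) scale (0.37, adjusted p = 0.16). Without 10 Hz replicates 1 and 2, a choice made only once the values were known, the 10 Hz against 4 Hz difference was 0.59 (adjusted p = 0.0793).

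Six5 (7:18828185-18832625, plus strand, 3 exons), a homeobox gene of the Six4 subfamily known from the myotonic dystrophy locus, was low and uneven. Its level ran from 1.05 to 4.13 CPM in control, 1.23 to 2.86 CPM at 1 Hz, 1.38 to 3.75 CPM at 4 Hz and 1.25 to 2.87 CPM at 10 Hz, on 91 to 132 counts per condition, so that all conditions overlapped. No difference was called, and the interval against control was -0.81 to 0.48 at 1 Hz, -0.64 to 0.61 at 4 Hz and -0.85 to 0.43 at 10 Hz. These bounds are wide, so that a difference of moderate size was not detectable at this depth. Within conditions Six5 ran against Six4, with a Pearson r of -0.74 for deviations from the condition means over 24 libraries. This was the most negative value among the member pairs, and log2 CPM itself had an r of -0.39. It rests on the few Six5 counts. Six5 shares 357 exonic bases with the lncRNA Gm72262 on the opposite strand. The study names a directional library kit, but whether counting used strand is not given in the sources used here.

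Six2 (17:85991665-85996020, minus strand, 2 exons), a homeobox gene best known from kidney progenitors, was barely detected. It held 5 counts in 24 libraries, 19 of which were at 0, and no library held more than 1. The pooled level was 0.0267 CPM (exact Poisson interval 0.00868 to 0.0624, which covers counting error only). A count of 0 allows up to 3 counts, or 0.197 CPM in the deepest and 0.734 CPM in the shallowest library. No fold change is given for Six2.

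Eya1 (1:14239167-14380543, minus strand, 18 exons), a coactivator needed for muscle formation in the embryo, was higher at 1 Hz. Control libraries ran from 7.11 to 10.9 CPM (median 8.93) and 1 Hz libraries from 9.44 to 17.2 CPM (median 14.4). The 4 Hz libraries ran from 9.21 to 12.2 CPM (median 10.7) and the 10 Hz libraries from 6.37 to 9.91 CPM (median 8.70). At 1 Hz 5 of 6 libraries were above every control library, and replicate 1, at 9.44 CPM, was not. Eya1 rose by 0.67 on the log2 scale at 1 Hz (SE 0.14, interval 0.38 to 0.96, adjusted p = 0.000733), a 1.59-fold level. Against control it stood at 0.26 at 4 Hz (interval -0.03 to 0.55, adjusted p = 0.147) and at -0.10 at 10 Hz (interval -0.40 to 0.20, adjusted p = 0.76). Eya1 was lower at 10 Hz than at 1 Hz by a log2 value of -0.77 (SE 0.14, adjusted p = 0.000142).

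The smaller Eya1 differences depended on single libraries. At 4 Hz against 1 Hz the difference was -0.41 (adjusted p = 0.0473), and it lost the call without any one of 16 of the 24 libraries (control replicates 1 to 4, 1 Hz replicates 2 to 6, 4 Hz replicates 1 to 5, and 10 Hz replicates 2 and 4), with adjusted p up to 0.121. At 10 Hz against 4 Hz the difference was -0.36 (adjusted p = 0.0622), and it was called without 1 Hz replicate 1, 4 Hz replicate 1, 10 Hz replicate 3 or 10 Hz replicate 6 (adjusted p 0.0387 to 0.0486). Given the small RNA share as a covariate, the 1 Hz difference of Eya1 was 0.39 (adjusted p = 0.566) and the 10 Hz against 1 Hz difference -0.53 (adjusted p = 0.161), while the 4 Hz against 1 Hz difference was -0.39 and was called (adjusted p = 0.0484).

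Eya3 (4:132366298-132452219, plus strand, 17 exons), a coactivator that is also a tyrosine phosphatase, was the most even member. Its level ran from 46.2 to 52.6 CPM in control, 42.1 to 53.7 CPM at 1 Hz, 37.2 to 48.4 CPM at 4 Hz and 42.7 to 48.9 CPM at 10 Hz. No pairwise difference was called, and the intervals against control were -0.12 to 0.17 at 1 Hz, -0.29 to 0.00 at 4 Hz and -0.22 to 0.08 at 10 Hz. At 4 Hz 5 of 6 libraries nevertheless lay below the lowest control library (adjusted p = 0.113). That difference was called when libraries were scaled by total count alone (-0.24, adjusted p = 0.0102) and when TPM was tested with limma on the log2(TPM + 1) scale (-0.36, adjusted p = 0.0367). These scalings moved the median of all genes by -0.11 and -0.16 at 4 Hz, which leaves a smaller difference for Eya3 relative to them. On the log2(TPM + 1) scale the 4 Hz against 1 Hz difference was called too (-0.47, adjusted p = 0.0244), with a median of all genes of -0.10. The 4 Hz against 1 Hz difference of -0.17 (adjusted p = 0.119) reached -0.21 (adjusted p = 0.05, just under the threshold) without 1 Hz replicate 3.

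Eya4 (10:22978861-23226817, minus strand, 19 exons), known from hereditary hearing loss and cardiomyopathy, was the second most abundant Eya gene and rose at the lower frequencies. Control libraries ran from 38.1 to 45.4 CPM (median 40.6). At 1 Hz they ran from 50.7 to 72.3 CPM (median 56.1) and at 4 Hz from 46.5 to 70.0 CPM (median 56.6). Every 1 Hz and every 4 Hz library was above every control library, which held for 13.1% and 16.6% of all tested genes in either direction. Eya4 rose by 0.52 at 1 Hz (SE 0.15, interval 0.21 to 0.84, adjusted p = 0.00999) and by 0.50 at 4 Hz (SE 0.15, interval 0.19 to 0.82, adjusted p = 0.0108). On the log2(TPM + 1) scale the 4 Hz difference was 0.21 (limma, adjusted p = 0.262), and on the log2(TPM + 0.1) scale the 1 Hz difference was 0.41 (adjusted p = 0.0514), neither of them called. With the small RNA share as a covariate the CPM-based differences at 1 and 4 Hz were 0.15 (adjusted p = 0.877) and 0.14 (adjusted p = 0.805).

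At 10 Hz Eya4 spread over most of the range of the other conditions. The libraries ran from 29.7 to 69.7 CPM with a median of 41.4, and the difference from control was 0.15 (interval -0.16 to 0.47, not called). Replicate 1 held the lowest level with a small RNA share of 176 CPM, and replicate 6 the highest with a share of 37.0 CPM, the lowest of that condition. The highest share, 270 CPM, was in replicate 2, at 36.3 CPM of Eya4. At 1 Hz the highest shares, 69.4 and 35.0 CPM, went with 57.8 and 72.3 CPM of Eya4, in a range of 50.7 to 72.3 CPM. The part of the share in the 10 Hz spread was not tested. Without 10 Hz replicate 6 Eya4 was lower at 10 Hz than at 1 Hz by a log2 value of -0.53 (adjusted p = 0.00337) and lower than at 4 Hz by -0.51 (adjusted p = 0.00703). The values with that library were -0.37 (adjusted p = 0.0565) and -0.35 (adjusted p = 0.0922). The 10 Hz against 1 Hz difference was also called without 1 Hz replicate 5, 4 Hz replicate 6 or 10 Hz replicate 5. It was called as well on the log2(TPM + 1) scale (-0.47, limma, adjusted p = 0.0215) and without a filter on low counts (-0.38, adjusted p = 0.0389). With the small RNA share as a covariate it was -0.08 (adjusted p = 0.865).

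**Figure D3:**
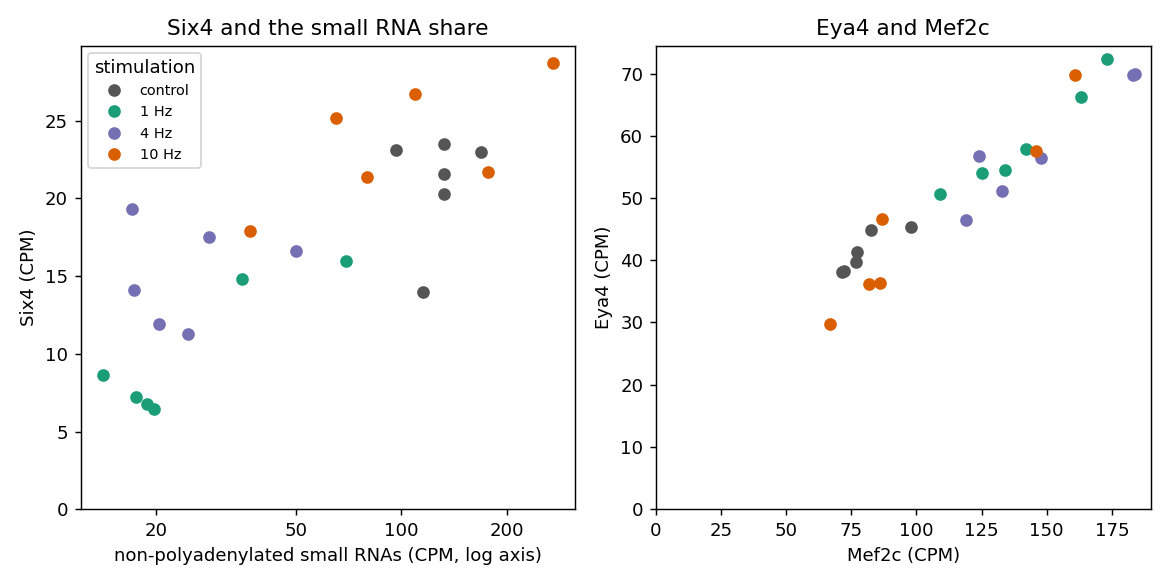
CPM of Six4 against the share of non-polyadenylated small RNAs (log axis) and of Eya4 against Mef2c, with 1 point for each of 24 libraries colored by condition. Six4 is lowest in the 4 libraries at 1 Hz with the smallest shares of that condition, while 4 Hz libraries at similar shares lie higher. Eya4 and Mef2c lie close to 1 line, with the 10 Hz libraries spread along it.

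Prox1 (1:189850232-189904637, minus strand, 5 exons), the homeobox factor whose upstream stretch is printed above, was the member that rose most. It is a scarce RNA, with 77 counts over the 6 control libraries and 278 over the 6 libraries at 4 Hz. Control libraries ran from 1.51 to 3.35 CPM (median 2.09), 1 Hz libraries from 3.28 to 5.92 CPM (median 3.97), 4 Hz libraries from 4.24 to 6.94 CPM (median 4.97) and 10 Hz libraries from 1.94 to 3.42 CPM (median 2.78). The 4 Hz libraries overlapped neither control nor 10 Hz (16.6% and 6.21% of all genes did not overlap in these pairs), and at 1 Hz 1 of 6 libraries lay within the control range. Prox1 rose 2.00-fold at 1 Hz (log2 value 1.00, SE 0.22, adjusted p = 0.000873) and 2.41-fold at 4 Hz (log2 value 1.27, SE 0.21, adjusted p = 4.61e-05). At 10 Hz the difference from control was 0.31 (interval -0.15 to 0.76, adjusted p = 0.472). It was lower at 10 Hz than at 4 Hz by a log2 value of -0.96 (SE 0.20, adjusted p = 0.0014) and lower than at 1 Hz by -0.69 (SE 0.20, adjusted p = 0.00906). The difference of 0.27 for 4 Hz against 1 Hz was not called (interval -0.12 to 0.66, adjusted p = 0.386).

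With the small RNA share as a covariate Prox1 kept most of the size of its differences and lost the calls, at 0.79 for 1 Hz (adjusted p = 0.386) and 1.08 for 4 Hz (adjusted p = 0.0736) against control, and at -0.52 and -0.80 for 10 Hz against 1 Hz and 4 Hz (adjusted p = 0.37 and 0.471). Without 10 Hz replicates 1 and 2 the 10 Hz against 1 Hz difference was -0.57 (adjusted p = 0.066). Prox1 shares 976 exonic bases with the antisense lncRNA Prox1os, which held 3 counts in all libraries together against 702 for Prox1. Across the 24 libraries log2 CPM of Prox1 and Eya4 had a Pearson r of 0.77, and of 0.57 for deviations from the condition means.

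Vgll2 (10:51898305-51906223, plus strand, 3 exons), the muscle-restricted Tead cofactor, showed no called difference. It ran from 2.68 to 6.28 CPM in control, 4.19 to 6.55 CPM at 1 Hz, 3.40 to 6.71 CPM at 4 Hz and 3.13 to 5.84 CPM at 10 Hz. All conditions overlapped. The difference from control was 0.32 at 1 Hz (interval -0.11 to 0.74, adjusted p = 0.241), 0.08 at 4 Hz (interval -0.35 to 0.50) and 0.08 at 10 Hz (interval -0.35 to 0.51). The factors it works with were better measured. Of 7 Tead and other Vgll genes, 6 were tested, 2 rose at 1 Hz and 3 at 4 Hz, and none fell, shares near those of all genes called at these frequencies (35.4% and 39.4%). At 10 Hz against control 0 of the 6 were called, with 0 at an unadjusted p under 0.05 and 0 by DESeq2. Tead3 rose by 0.58 at 1 Hz (adjusted p = 0.0122) and by 0.69 at 4 Hz (adjusted p = 0.00305), Tead1 by 0.38 at 4 Hz (adjusted p = 0.0241) and Tead2 by 0.32 at 1 Hz (adjusted p = 0.0235). None of the 6 (0) was called at 1 Hz or 4 Hz with the small RNA share as a covariate.

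Sox6 (7:115070106-115638860, minus strand, 15 exons), the repressor of slow-fiber genes, was below the filter. It held 13 counts over all 24 libraries, 15 of which were at 0, and no library held more than 3. The pooled level was 0.0695 CPM (exact Poisson interval 0.037 to 0.119). Counts by condition were 2 in control, 3 at 1 Hz, 3 at 4 Hz and 5 at 10 Hz, all of which are too few for a fold change. Sox6 shares 228 exonic bases with 1110004F10Rik on the opposite strand, which held 17813 counts. The library kit was directional, but how counting used strand is not known. Even these few reads thus cannot be assigned to Sox6 with certainty.

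**Figure D4:**
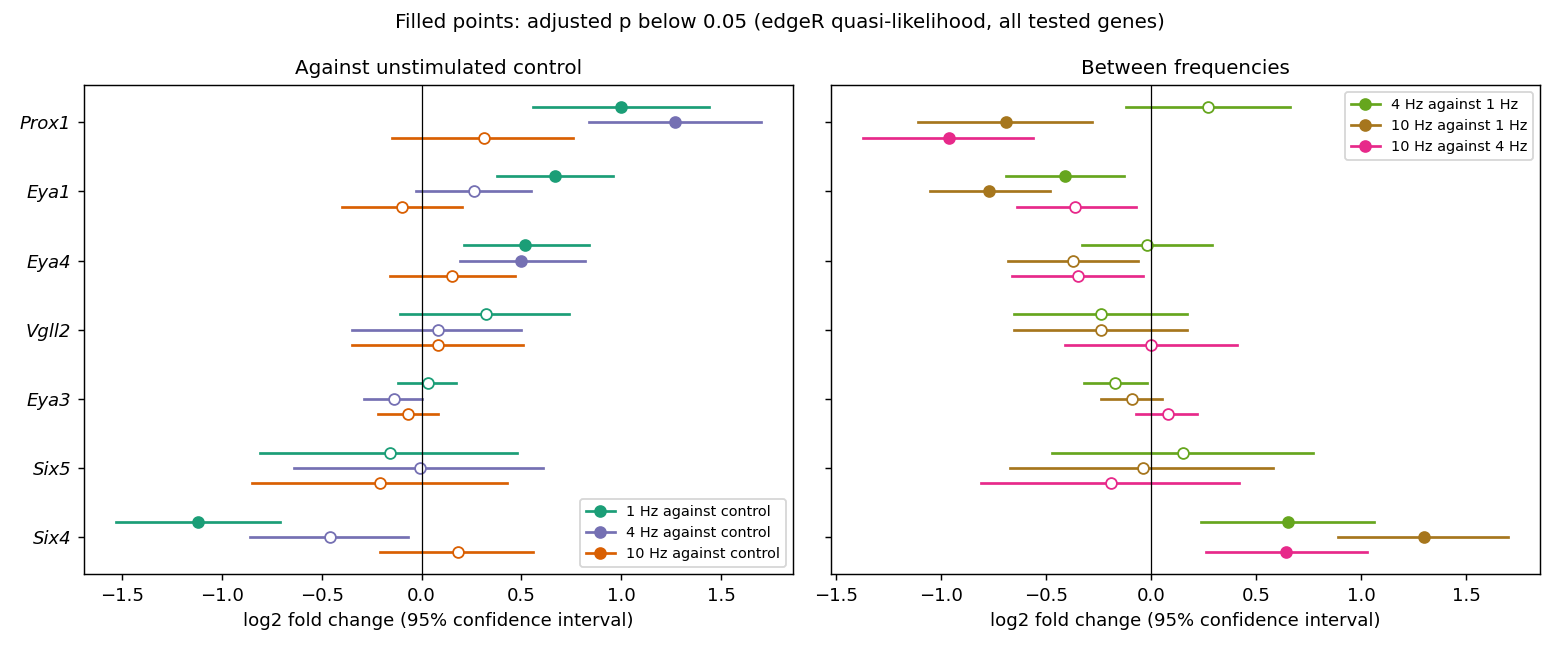
Log2 fold change with its 95% confidence interval for the 7 tested members, against control (left) and between frequencies (right), with filled points for adjusted p below 0.05. Six4 lies left of 0 at 1 Hz and right of 0 for 10 Hz against 1 Hz, and Prox1, Eya1 and Eya4 lie on the opposite sides, with the Eya4 point for 10 Hz against 1 Hz open.

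The other regulators of fiber type that were called at 1 Hz moved up, as Prox1 did. Of 15 on the list 14 were tested, and 7 rose and none fell at 1 Hz, where 18.1% of all genes rose and 17.3% fell. The list had a median log2 fold change of 0.32 there, against -0.01 over all genes. At 4 Hz 7 rose and 1 fell, where 39.4% of all genes were called and 19.2% rose. At 10 Hz against control 0 were called (3 at an unadjusted p under 0.05, 0 by DESeq2), against 4.89% of all genes. Nfatc1, the calcineurin target, rose by 1.75 at 1 Hz (SE 0.23, adjusted p = 5.57e-06) and by 1.68 at 4 Hz (adjusted p = 3.91e-06). Nfix, a regulator of the fetal switch, rose by 0.77 and 0.90 (adjusted p = 0.000356 and 4.82e-05), and Hdac4, a repressor of Mef2 factors, by 0.68 and 0.36 (adjusted p = 0.000208 and 0.0236).

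Fiber genes of both types rose together while Six4 fell. Of 16 fast-fiber genes 14 rose at 1 Hz and 16 at 4 Hz, and of 11 tested slow-fiber genes 11 rose at each, with none of either list falling. Over all genes 18.1% rose at 1 Hz and 19.2% at 4 Hz. The median log2 fold change at 1 Hz was 0.67 for the fast and 0.87 for the slow list. At 10 Hz against control 4 fast and 3 slow genes rose, where 4.89% of all genes were called. Among fast genes Tnni2 rose by 0.75 at 1 Hz (adjusted p = 0.000134) and Myh2 by 1.22 (adjusted p = 3.47e-05), and among slow genes Casq2 rose by 0.87 (adjusted p = 1.23e-06) and Csrp3 by 1.15 (adjusted p = 5.12e-06). Of 5 tested myogenic and Pax genes 3 rose at 1 Hz (18.1% of all genes), with Myod1 at 1.17 (adjusted p = 0.000456) and Myog at 0.47 (adjusted p = 0.0144). At 4 Hz 3 rose and 1 fell, with Myog at 0.85 (adjusted p = 7.73e-05). At 10 Hz against control 1 rose, Myog by 0.62 (adjusted p = 0.0142). With the small RNA share as a covariate none of these fiber-type regulators, fast, slow or myogenic genes was called at 1 Hz (0 of each list), and at 4 Hz 7 fast and 6 slow genes were. At 10 Hz against control 3 fast, 3 slow and 1 myogenic genes were called with that covariate, and 0 fiber-type regulators.

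**Figure D5:**
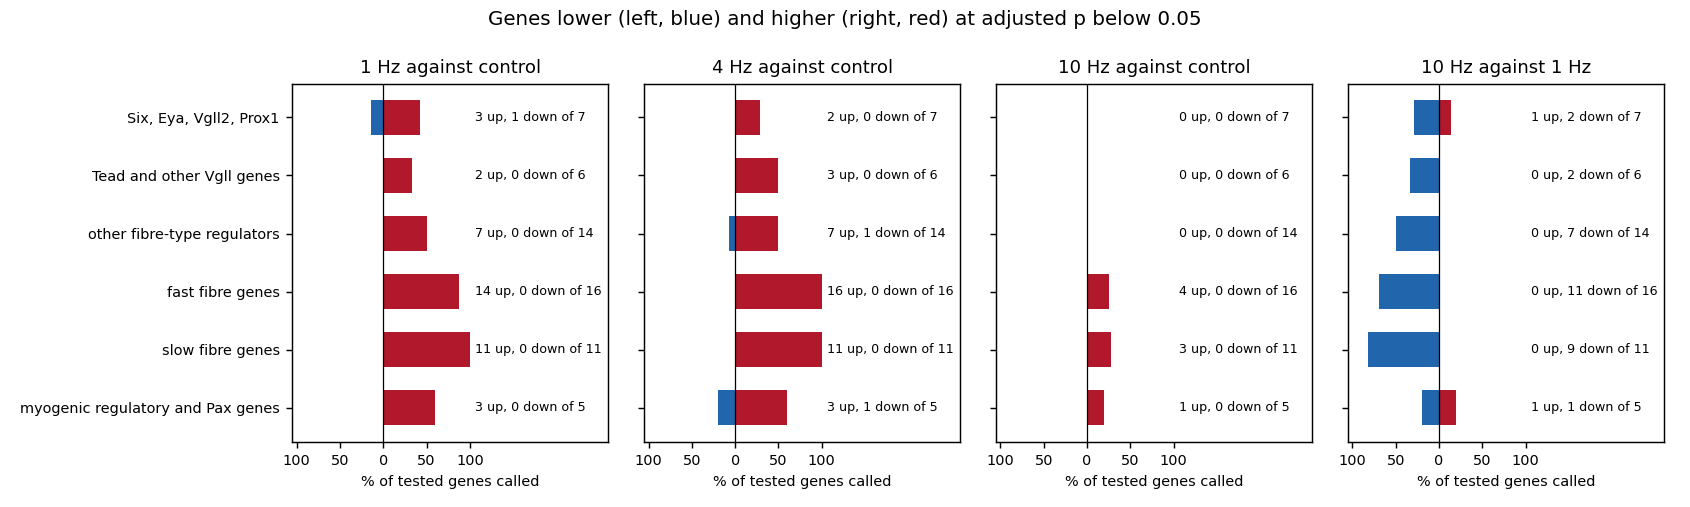
Share of tested genes called higher (right, red) and lower (left, blue) in 4 comparisons, for the members and 5 other gene lists, with the counts beside each bar. At 1 Hz and 4 Hz nearly all fast and slow fiber genes are higher, and Six4 is the member that is lower at 1 Hz.

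Markers of other states were read beside these results. Over all genes 35.4% were called at 1 Hz (18.1% higher) and 39.4% at 4 Hz (19.2% higher). At 1 Hz 1 of 8 dividing cell markers fell and none rose, and at 4 Hz 3 rose and 1 fell, with Top2a at 0.69 (adjusted p = 0.0182) and Cdk1 at -0.38 (adjusted p = 0.026). The summed level of these markers was 33.3 to 51.3 TPM in control, 27.5 to 32.9 TPM at 1 Hz, 20.9 to 39.2 TPM at 4 Hz and 29.2 to 39.1 TPM at 10 Hz. Of 7 tested markers of unfused reserve cells 3 rose at 1 Hz, with Cd34 at 0.48 (adjusted p = 0.00478) and Pax7 at 0.99 (adjusted p = 0.0349). At 4 Hz 2 rose and 1 fell, with Pax7 at 1.04 (adjusted p = 0.023) and Myf5 at -0.61 (adjusted p = 0.00879), and their summed level was 251 to 329 TPM in control and 292 to 339 TPM at 1 Hz. Among 8 fibroblast, endothelial and macrophage markers 3 were tested and 1, Pdgfra, rose at 1 Hz, by 0.45 (adjusted p = 0.0257), and at 4 Hz Dcn and Csf1r fell by 0.59 and 1.33 (adjusted p = 0.00695 and 0.0195). Their summed level was 25.1 to 57.4 TPM in control, 25.6 to 45.0 TPM at 1 Hz, 20.8 to 27.3 TPM at 4 Hz and up to 36.5 TPM at 10 Hz. Of 9 skeletal muscle markers 7 rose at 1 Hz, above the share of all genes called. The number of reserve cell markers called was near that share at 1 Hz and 4 Hz. At 10 Hz against control 3 skeletal muscle markers rose, where 4.89% of all genes were called, and 0 of each other marker list were called. With the small RNA share as a covariate 0 markers of each list were called at 1 Hz. At 4 Hz 1 skeletal muscle marker was called with it and 0 of each other list, and at 10 Hz 3 skeletal muscle markers were. The part of these shifts in the levels of Six4, Eya1, Eya4 and Prox1 was not tested.

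For the 4 members with a mean of at least 5 CPM, the genes with the most similar pattern over the 24 libraries were named by the Pearson r of log2 CPM among genes of at least 10 CPM. Eya4 was closest to Mef2c, a muscle transcription factor (r = 0.95), then to Sspn, of the dystrophin complex (0.931), and Ogn, an extracellular matrix proteoglycan (0.917). The relation of Eya4 and Mef2c held for deviations from the condition means (r = 0.945), and Mef2c ran from 67.0 to 161 CPM within 10 Hz alone. Six4 was closest to Frg1 (0.943), Thumpd3 (0.94) and the proteasome gene Psma1 (0.934), and Eya1 to the amino acid transporter gene Slc7a1 (0.893), Fnip2 (0.88) and the Wnt receptor gene Fzd4 (0.874). Eya3 had weaker neighbors, with the Integrator gene Ints9 at 0.745 and Kansl3 at 0.721. The libraries share depth and the small RNA share, and these values carry no test.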

How the data were processed

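RNA of 24 tissues was sequenced after poly(A) selection, with ribodepletion for low-input samples that the labels do not name. The authors mapped reads with the nf-core/rnaseq pipeline (STAR and Salmon) to GRCm39 and deposited estimated counts and TPM per gene. The submitters' processing notes also list BWA 0.7.12-r1039 and bedtools 2.25.0. The study names a directional library kit. The annotation release and the use of strand in counting are not given in the sources used here. Estimated counts were rounded, and between 5.29% and 7.86% of values in a library were not whole.

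Genes were filtered with filterByExpr (13318 of 56941 kept), scaled by TMM and tested with edgeR 4.0.16 (quasi-likelihood, condition as the only term, all 24 libraries, 2-sided, Benjamini-Hochberg adjustment over all tested genes) in R 4.3.3. As alternatives, the deposited TPM was tested on the log2 scale with pseudocounts of 1 and 0.1 and a minimum mean of 1 TPM with limma 3.58.1, and counts with DESeq2 1.42.0, other scalings and filters, a replicate block, and the log share of small RNAs (15 of 21 listed names were found) as a covariate. The procedure was tested on simulated counts with changes at 1 Hz only and no difference in library preparation. That test therefore does not bear on the small RNA share. All 9 members are named, the other lists (Tead and Vgll; fiber-type regulators; fast and slow fiber; myogenic; skeletal muscle, dividing, reserve and non-muscle cell markers) by at most 3 genes with the lowest adjusted p over the 4 conditions, and the similar genes by the highest correlation, passing over predicted genes, pseudogenes and Riken clones. The members and lists were chosen with earlier results of these data known. Positions and upstream windows came from GRCm39 with GENCODE M39. Intervals for counts cover counting error only. Some genes of the lists and of the similar genes are not reported here.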

Additional observations from a re-analysis of the deposited data

Results flagged for a closer look

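Of 28 groups of 6 libraries screened for a library far from its group, 2 were flagged, and chance alone flags about 1 in 20 groups. Control replicate 4 held 14.0 CPM of Six4, where the other 5 control libraries held 20.3 to 23.5 CPM, a gap of 0.668 of the range. Control replicate 1 held 52.6 CPM of Eya3, where the others held 46.2 to 48.5 CPM, a gap of 0.637 of the range. Without control replicate 4 the Six4 difference at 4 Hz against control was -0.56 and passed the threshold (adjusted p = 0.0221).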

How the results depend on the processing

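The count of members called at 1 Hz against control was 4, and 2 on the log2(TPM + 0.1) scale and 0 with the small RNA share as a covariate. At 4 Hz against control it was 2, and 4 under total count scaling, 1 at a mean of at least 5 CPM (where 4 members were tested) and 0 with the share. At 4 Hz against 1 Hz it was 2, and 1 with a fold limit of 0.5 added, without a filter or at a mean of at least 5 CPM, and 0 for unfiltered log2(TPM + 1) or from the 12 libraries compared. At 10 Hz against 1 Hz it was 3, and 0 with the share, and the 3 of the TPM fits included Eya4 and not Prox1. At 10 Hz against 4 Hz it was 2, and 1 at a mean of at least 5 CPM, in each of the 3 TPM fits and without 10 Hz replicates 1 and 2 (chosen after seeing the data), and 0 with the share. For any difference it was 4, and 1 with the share. Leaving out each library gave 4 to 4 at 1 Hz, 2 to 3 at 4 Hz and 0 to 0 at 10 Hz against control, 0 to 2 at 4 Hz against 1 Hz, 3 to 4 at 10 Hz against 1 Hz, 2 to 4 at 10 Hz against 4 Hz and 4 to 4 for any difference. No member called in the reported fit changed sign under any alternative, but the Six4 difference at 4 Hz against control, which was not called (-0.46), was 0.18 with the share. Prox1 fell under the TPM filter of 1 and was not tested there, and the fold limit has no form for the test of any difference.

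Deviations of same-numbered libraries (36 pairs) had a mean r of 0.05 (range -0.18 to 0.36), against -0.01 for the 180 other pairs. Of 24 libraries 10 were closest to one of their own number, more than these numbers of pairs alone would give. Since neither the labels name a shared batch nor every pair correlated above 0.1, the numbers were not taken to pair tissues, though the 10 libraries leave some shared variation possible. With the replicate block 3 members were called at 4 Hz against control and 3 at 10 Hz against 4 Hz, where Six4 (adjusted p = 0.0295) and Eya1 (0.039) passed, and no other count of members changed, while over all genes every comparison gained calls (651 to 828 at 10 Hz against control).

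Total count scaling moved the median of all genes by -0.11 at 4 Hz against control. The share of called genes that were higher went with it from 51.1% to 36.5% at 1 Hz. At 4 Hz the share went from 48.7% to 33.0% (23.3% for log2(TPM + 1)), and at 10 Hz from 54.7% to 39.4%. For 10 Hz against 4 Hz it rose from 48.0% to 64.4%. Over all genes the small RNA covariate left 307 of 5251 calls at 4 Hz against control, 328 of 4829 at 10 Hz against 1 Hz, 0 of 3037 at 10 Hz against 4 Hz and 2006 of 6964 for any difference. The fold limit left 2441 of 4720 calls at 1 Hz, 2676 at 4 Hz, 248 of 651 at 10 Hz against control, 399 of 1634 at 4 Hz against 1 Hz, 2390 at 10 Hz against 1 Hz and 1460 at 10 Hz against 4 Hz. At 10 Hz against control DESeq2 called 994 genes, the 12 libraries compared gave 302 and unfiltered log2(TPM + 1) gave 431. The last gave 3030 at 10 Hz against 1 Hz and 1554 at 10 Hz against 4 Hz, where leaving out 10 Hz replicates 1 and 2 gave 1273, and no filter gave 964 at 4 Hz against 1 Hz. The causes were not tested. Depth limits Six2, Sox6, Six5 and Prox1.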
